A study of Mus musculus with 4 samples.

Results

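The genes described here encode transporters of sugars, fatty acids, monocarboxylates and vitamins, taken as every gene of the Slc2a, Slc5a, Slc16a, Slc19a, Slc23a, Slc27a and Slc37a families that had a probe set naming it alone. The rule found 53 genes, measured by 54 probe sets, among the 18820 genes of the arrays. The samples were cultured metanephric kidneys of mouse embryos carrying the Lgr5-EGFP-Ires-CreERT2 allele (B6.129P2-Lgr5tm1(cre/ERT2)Cle/J mice), dissected at about day 14 of gestation and cultured for about 10 days. Cells with high GFP, which report Lgr5 expression, were sorted from cells without GFP, and 2 arrays were run on each fraction. By their titles the GFP-high arrays came from kidneys A and B and the others from kidneys B and D, and they are called high A, high B, negative B and negative D here. Both fractions carry the same allele and had the same culture and digestion, and the labels do not say whether a letter stands for 1 embryo, a pool or a litter. P-values therefore measure only how far these 4 samples spread, and that spread may be technical.

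Solute carriers of these families decide what a tubule cell takes up as fuel and what it returns to the blood. In the kidney, proximal tubule cells reclaim filtered glucose, lactate, ascorbate and other small solutes through sodium-coupled carriers on the apical side and let them leave through facilitative carriers on the basolateral side. They burn fatty acids rather than glucose, while cells of the loop of Henle and of the medulla use glycolysis more and build up organic osmolytes such as myo-inositol. The comparison asks how the Lgr5-reporter cells differ in this equipment from the other cells of the same cultures.

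Lgr5 read 10.43 and 10.34 in GFP-high cells, against 6.39 and 6.31 in GFP-negative cells (log2 values), without overlap, as the labels have it. Array medians lay between 5.07 and 5.24. All 8 nephron progenitor markers, such as Six2, were lower in GFP-high cells. So were 12 of 12 stromal, 9 of 12 proximal tubule, 7 of 8 endothelial and 5 of 5 podocyte markers. Of 8 macrophage and leukocyte markers 2 were lower and 6 did not pass, while 7 of 8 thick ascending limb markers were higher. The shares of all genes were 11.2% lower and 8.08% higher. In sorted bulk RNA, fewer cells of a type and less RNA per cell cannot be told apart. Erythroid markers were near background, with 1 of 5 above it.

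Of the 53 transporter genes, 9 passed as higher and 16 as lower in the GFP-high fraction at an adjusted p below 0.05 (limma), and 28 did not pass. That is 17% higher and 30.2% lower, against 8.08% and 11.2% of all genes tested. The 2 groups of arrays did not overlap in 37 of the 53 (69.8%), against 57.3% of all genes. The median log2 difference, GFP-high minus GFP-negative, was -0.06 for the transporters and 0.051 for all genes. With each array centred on its median these became 0.035 and 0.147, the share of higher genes among all calls moved from 42% to 52.9%, and the transporter counts became 9 higher and 14 lower. Of the 25 transporters that passed, 14 differed at least 2-fold, 6 of them higher and 8 lower. All 25 had the same sign when only the GFP-high and GFP-negative arrays of kidney B were set against each other. That sign is no separate check, because the 2 groups of arrays did not overlap in any of the 25, which fixes it. A gene was taken as above background when its mean in either group exceeded 4.30, the 95th percentile of 979 olfactory receptor genes. By this measure 46 transporters were above background, including all 25 that passed.

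**Figure D1:**
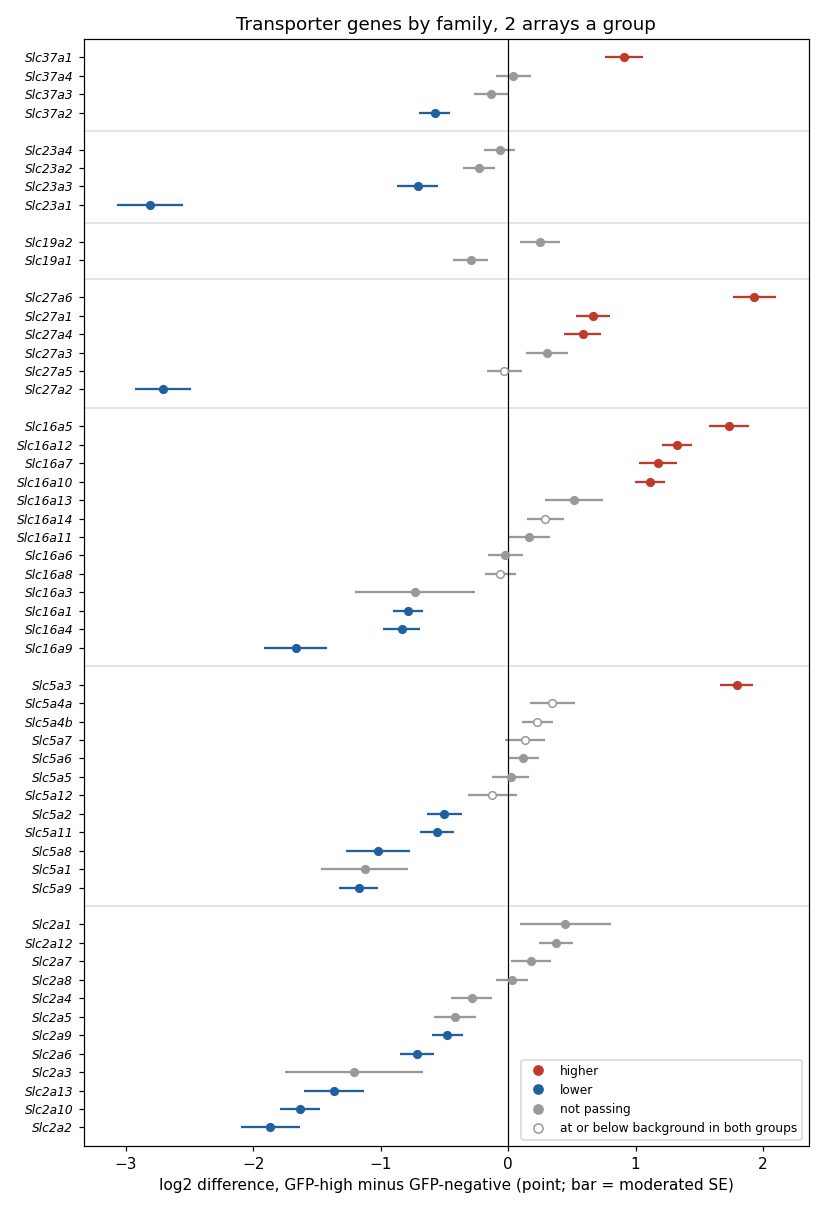
Log2 difference between GFP-high and GFP-negative cells (horizontal axis) for each of the 53 transporter genes, grouped by family, with the moderated standard error as a bar. Red points were higher and blue points lower at adjusted p below 0.05, and open points were at or below background in both groups. Slc2a holds 5 blue and 0 red points, while Slc27a holds 3 red points and 1 blue.

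The counts rest on few arrays. With any 1 array left out, calls over all genes fell as well, and such fits keep 1 residual degree of freedom. Without high A, 5 transporters were higher and 2 lower, and without high B 5 and 3. Without negative B there were 6 and 10, and without negative D 6 and 6. The 7 genes that passed with each array left out in turn were Slc5a3, Slc27a6, Slc16a5, Slc16a12 and Slc16a10, all higher, and Slc27a2 and Slc2a10, both lower. For 5 of these 7, RefSeq promoter windows (GRCm38.p6) that can be shown were at hand. The 250 bases before each start site are printed 5′ to 3′, and their part in these differences was not tested. The windows are chr16:92058072-92058321 (plus strand), chr19:34747329-34747578 (minus), chr10:40142255-40142504 (minus), chr2:126552774-126553023 (plus) and chr2:165503647-165503896 (plus). Capitals mark matches to any of 4 short motifs, on either strand, where neighbouring matches may overlap: the GC box GGGCGG, the NFAT-type core TGGAAA, the HNF1-type site GTTAAT and the HNF4-type site CAAAGTCCA.

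Slc5a3: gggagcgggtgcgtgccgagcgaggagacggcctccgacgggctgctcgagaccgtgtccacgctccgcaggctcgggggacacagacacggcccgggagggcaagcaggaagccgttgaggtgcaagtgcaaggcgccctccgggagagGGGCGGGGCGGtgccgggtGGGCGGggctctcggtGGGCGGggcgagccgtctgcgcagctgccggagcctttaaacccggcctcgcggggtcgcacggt

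Slc16a12: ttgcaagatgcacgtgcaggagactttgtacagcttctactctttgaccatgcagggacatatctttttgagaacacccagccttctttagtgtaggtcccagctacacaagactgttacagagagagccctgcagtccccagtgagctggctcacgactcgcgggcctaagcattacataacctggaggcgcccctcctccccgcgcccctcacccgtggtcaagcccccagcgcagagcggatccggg

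Slc16a10: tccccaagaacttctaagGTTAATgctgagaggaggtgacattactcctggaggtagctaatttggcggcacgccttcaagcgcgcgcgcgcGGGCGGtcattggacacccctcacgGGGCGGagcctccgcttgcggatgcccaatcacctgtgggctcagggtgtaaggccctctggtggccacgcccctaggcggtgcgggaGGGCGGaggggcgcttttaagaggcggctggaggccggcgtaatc

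Slc27a2: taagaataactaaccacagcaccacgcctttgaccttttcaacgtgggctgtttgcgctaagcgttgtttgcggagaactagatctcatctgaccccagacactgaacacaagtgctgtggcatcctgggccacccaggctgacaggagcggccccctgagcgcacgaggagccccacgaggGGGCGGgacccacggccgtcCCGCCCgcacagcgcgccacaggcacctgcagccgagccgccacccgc

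Slc2a10: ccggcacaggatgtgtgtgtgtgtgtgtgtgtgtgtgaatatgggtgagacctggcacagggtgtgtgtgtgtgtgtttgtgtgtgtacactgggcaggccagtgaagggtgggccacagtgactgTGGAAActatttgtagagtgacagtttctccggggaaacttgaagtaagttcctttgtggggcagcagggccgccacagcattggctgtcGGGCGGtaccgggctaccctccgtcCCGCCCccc

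The GC box recurs in 4 of these 5 windows, and the Slc16a12 window holds none of the motifs. Promoter windows were matched for 41 of the 53 transporters, some with several starts. A GC box lay in 6 of 8 windows of genes that were higher, 7 of 13 windows of genes that were lower and 14 of 28 windows of genes that did not pass, against 32.7% of all 32851 windows. The NFAT-type core lay in 0, 3 and 5 of these windows, against 18.6% of all. The HNF1-type site lay in 1, 1 and 0, against 6.43% of all, and the HNF4-type site in none of them, against 0.384% of all. A match describes the letters of the window only.

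Among the facilitative hexose carriers of the Slc2a family, 5 of 12 were lower in GFP-high cells (41.7%, against 11.2% of all genes). There were 0 higher (against 8.08% of all genes), and 7 did not pass. The family's differences ran from -1.87 to 0.449 on the log2 scale. Slc2a2 encodes GLUT2, through which reabsorbed glucose leaves the proximal tubule cell. It read 4.77 and 4.84 on high A and high B, and 6.29 and 7.05 on negative B and negative D. Both GFP-high arrays were low, and the groups did not overlap (3.65-fold lower, log2 difference -1.87, SE 0.233, adjusted p = 0.001357). Adjusted p was 0.107 without high A and 0.0926 without high B.

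Slc2a10 encodes GLUT10, a carrier whose loss causes arterial tortuosity. It read 4.04 and 4.42 in GFP-high against 5.80 and 5.92 in GFP-negative cells. The GFP-high mean, 4.23, lay below the background level, so the fold is a lower bound, against arrays raised to that level (at least 2.83-fold lower, adjusted p = 0.0003872). Folds given below as "at least" are taken in the same way, while log2 differences are as measured. Bounded so, the log2 decreases of such genes given below would be at least 0.66 (Slc16a4), 0.81 (Fbp2), 0.24 (Slc37a2), 0.39 (Slc5a11) and 0.43 (Slc5a2). Slc2a13 encodes HMIT, which couples myo-inositol uptake to protons. It read 5.55 and 5.98 in GFP-high against 6.80 and 7.46 in GFP-negative cells, 2.58-fold lower (adjusted p = 0.006488). This call was lost without high A (adjusted p = 0.176) or high B (0.1) and without negative D (0.0857).

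The remaining decreases of the family were smaller. Slc2a6, an intracellular hexose carrier, had a log2 difference of -0.72 (adjusted p = 0.008799). Slc2a9, a urate carrier, had -0.48 (adjusted p = 0.03236). Both calls were lost when any single array was dropped (adjusted p 0.0636 to 0.114 for Slc2a6 and 0.113 to 0.177 for Slc2a9). Slc2a9 also missed the threshold with the array number as a block (adjusted p = 0.0783) and after quantile normalization (0.0671) or median centring (0.0977), and with an intensity trend in the fit (0.0764). Slc2a4, the insulin-regulated GLUT4, Slc2a5, a fructose carrier, Slc2a7, Slc2a8 and Slc2a12 had differences between -0.42 and 0.38 and did not pass.

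**Figure D2:**
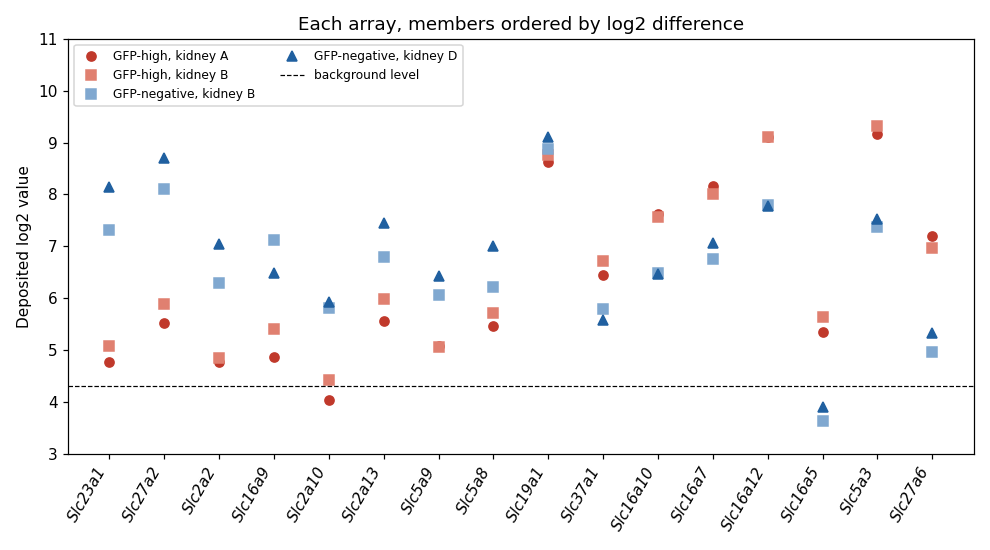
Deposited log2 value (vertical axis) on each of the 4 arrays for the 14 transporters that passed with at least a 2-fold difference, together with Slc19a1 and Slc37a1, ordered by log2 difference. Circles and squares in red tones are GFP-high arrays, squares and triangles in blue tones GFP-negative arrays, and the dashed line is the background level of 4.30. From Slc23a1 to Slc5a8 both GFP-high arrays lie below both GFP-negative arrays, and from Slc37a1 to Slc27a6 above them.

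Slc2a1, the widespread glucose carrier GLUT1, did not separate the groups. It read 11.53 and 10.99 in GFP-high against 10.24 and 11.38 in GFP-negative cells (log2 difference 0.45, SE 0.356, adjusted p = 0.4741). In each group the kidney B array was the lower. The same held for Slc16a3, which encodes the lactate exporter MCT4, at 7.74 and 6.51 against 7.26 and 8.45. Within GFP-high cells kidney A exceeded kidney B by 0.549 for Slc2a1 and 1.23 for Slc16a3, and within GFP-negative cells kidney D exceeded kidney B by 1.14 and 1.19. These were the 2 transporters of 53 in which the kidney B array was lower by at least 0.5 in both groups, against 0.213% of all genes (40 of 18820). In 1 transporter (1.89%), Slc16a9, it was higher by that much in both groups, against 0.345% of all genes. Slc2a3 (gaps of 0.493 and 1.93) and Slc16a13 (0.566 and 0.463) narrowly missed the 0.5 cut for a lower kidney B array. Hk2, the hexokinase that traps glucose in growing or oxygen-poor cells, read 7.24 and 6.36 against 6.46 and 7.46, with kidney B lower by 0.876 and 1.01. It was picked after its values were seen, and Ldha and Pdk1, read with it, did not reach such gaps. Ldha ran the other way (-0.16 and -0.11), and Pdk1, a kinase that keeps pyruvate back from mitochondria, had gaps of 0.159 and 0.28.

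Slc2a3, the high-affinity carrier GLUT3, read 5.17 and 4.67 in GFP-high against 5.17 and 7.09 in GFP-negative cells. Only the kidney D array was high, and the groups overlapped (adjusted p = 0.1903). A further fit took the kidney B arrays as 1 block and those of kidneys A and D as the other. By the titles A and D are different kidneys, so only the kidney B arrays share a letter. The fit keeps 1 residual degree of freedom. In it Slc16a3 had adjusted p = 0.004982 at a log2 difference of -0.73, and Slc2a3 0.03351 at -1.21. Slc16a3 was picked above by its kidney gaps of 1.23 and 1.19. The block takes such a gap out, so this low adjusted p is no separate support. Leaving out an array breaks a block, so the left-out values here are unpaired differences. The Slc2a3 value rests on negative D, at -0.25 without that array, -2.18 without negative B and -0.49 within kidney B. For Slc16a3 the GFP-high array was lower in both blocks, at 6.51 against 7.26 (kidney B) and 7.74 against 8.45 (kidneys A and D). Its unpaired difference was -0.13 without negative D, -0.12 without high B, -1.34 without high A and -1.33 without negative B. Within kidney B it was -0.75. Slc5a1 (0.02995) and Slc16a13 (0.02154) also passed in that block fit. Slc2a1 did not (0.1096), at a log2 difference of 0.75 within kidney B.

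**Figure D3:**
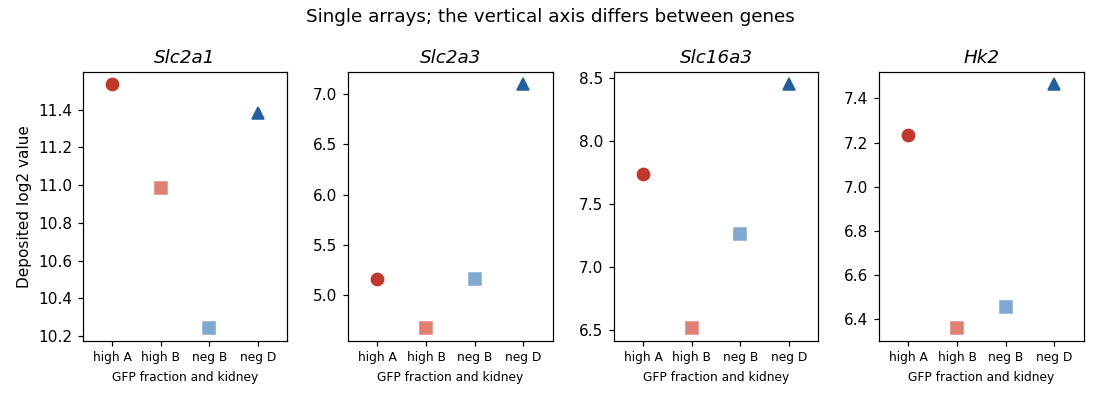
Deposited log2 values of Slc2a1, Slc2a3, Slc16a3 and Hk2 on the single arrays, named by GFP fraction and kidney, with a vertical axis that differs between genes and does not start at 0. For Slc2a1, Slc16a3 and Hk2 both kidney B arrays (squares) lie below the kidney A and kidney D arrays.

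The sodium-coupled Slc5a family comprised 12 measured genes, of which 1 was higher, 4 were lower and 7 did not pass. The share of higher genes, 8.33%, was near that of all genes (8.08%), and 33.3% were lower, against 11.2%. Slc5a3 encodes SMIT1, which takes up myo-inositol as an osmolyte. It read 9.16 and 9.33 in GFP-high cells, against 7.38 and 7.52 in GFP-negative cells. Both GFP-high arrays were high without overlap (3.47-fold, log2 difference 1.79, SE 0.132, adjusted p = 0.0001113), and adjusted p was at most 0.0244 with any array left out. The RefSeq promoter windows of Slc5a3 and of Mrps6, a mitochondrial ribosomal protein gene, start 14 bases apart, so the start region printed above is shared. The other carriers of myo-inositol went down, Slc2a13 as given and Slc5a11, which encodes SMIT2, with a log2 difference of -0.56 and a GFP-high mean of 4.14 within background (adjusted p = 0.02844). Slc5a11 did not pass with any 1 array left out (adjusted p 0.0809 to 0.2), with the array number as a block (0.0632) or with median centring (0.0615).

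Slc5a9, a mannose and glucose cotransporter, read 5.07 in both GFP-high samples, against 6.06 and 6.42 in the GFP-negative ones. The groups were apart (2.25-fold lower, adjusted p = 0.001639), but the call was lost without high A (adjusted p = 0.0833) or high B (0.0784). Slc5a8, a lactate and short-chain fatty acid cotransporter of the proximal tubule, read 5.47 and 5.71 against 6.21 and 7.01. The kidney D array was the highest (2.03-fold lower, adjusted p = 0.02818). Without it the log2 difference fell from -1.02 to -0.62 (adjusted p = 0.14), and without high A and high B adjusted p was 0.304 and 0.209.

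Slc5a2, which encodes SGLT2, the main glucose cotransporter of the early proximal tubule, was close to background at 4.39 and 4.16 against 4.84 and 4.71. It passed narrowly (log2 difference -0.50, adjusted p = 0.04367). It did not with any 1 array left out (adjusted p 0.111 to 0.272), with median centring (0.113), with quantile normalization (0.0682), with the array number as a block (0.0676) or with an intensity trend in the fit (0.0686). Slc5a1, which encodes SGLT1 of later proximal segments, read 6.15 and 6.22 against 6.71 and 7.91. The groups were apart without passing (log2 difference -1.12, adjusted p = 0.06254). It passed with the array number as a block (adjusted p = 0.03898) and with median centring (0.04351). Without negative D its difference was -0.52 (adjusted p = 0.137), without negative B -1.72 (0.0117), and within kidney B -0.49. Without high A or high B adjusted p was 0.378 and 0.324. Slc5a6, a carrier of biotin and pantothenate, and Slc5a5, the iodide carrier, had differences of 0.12 and 0.02. Slc5a4a, Slc5a4b, Slc5a7 and Slc5a12 were at or below background in both groups, and Slc5a4a and Slc5a4b are close copies that probes may not tell apart.

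The Slc16a family was split: of 13 genes, 4 were higher (30.8%), 3 were lower (23.1%) and 6 did not pass. Of all genes 8.08% were higher and 11.2% lower. Its classical members move lactate, pyruvate and ketone bodies with protons. Slc16a7, the high-affinity MCT2, read 8.17 and 8.01 in GFP-high against 6.75 and 7.07 in GFP-negative cells, 2.26-fold higher (adjusted p = 0.001582, but 0.0818 and 0.0611 without high A or high B). Slc16a1, the widespread MCT1, was lower at 8.69 and 8.77 against 9.53 and 9.49 (log2 difference -0.78, SE 0.12, adjusted p = 0.003613, and 0.0542 to 0.0687 with 1 array left out). The 2 carriers of the same substrates therefore differed in opposite directions on the same arrays. Slc16a8, the retinal MCT3, was within background in both groups.

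Other Slc16a genes carry different solutes. Slc16a12, a creatine carrier, read 9.11 in both GFP-high samples, against 7.79 and 7.78 in the GFP-negative ones, 2.50-fold higher (SE 0.118, adjusted p = 0.0002654). Slc16a10, an aromatic amino acid and thyroid hormone carrier known as TAT1, read 7.62 and 7.57 against 6.49 and 6.48, 2.16-fold higher (adjusted p = 0.0006177). In both genes the arrays of a group lay within 0.1 of each other. Slc16a5, which encodes MCT6, read 5.35 and 5.64 against 3.63 and 3.90, at least 2.30-fold higher, since the GFP-negative mean of 3.76 lies within background (adjusted p = 0.000287).

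Slc16a9, a carnitine carrier, went the other way. It read 4.87 and 5.40 in GFP-high against 7.11 and 6.49 in GFP-negative cells, 3.18-fold lower (adjusted p = 0.003004). The call was lost without high A (adjusted p = 0.123) or high B (0.069) and without negative B (0.0687). A second probe set of this gene lay within background in both groups. Slc16a4, an orphan carrier, was lower by 0.84 on the log2 scale, to a GFP-high mean of 4.13 within background (adjusted p = 0.006959, and 0.132, 0.117 and 0.0773 without high A, high B and negative D). Slc16a6, Slc16a11 and Slc16a13 had differences between -0.02 and 0.52 without passing, and Slc16a14 was within background.

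In the Slc27a family, whose proteins take up long-chain fatty acids and join them to coenzyme A, 3 of 6 genes were higher, 1 was lower and 2 did not pass. That is 50% higher and 16.7% lower, against 8.08% and 11.2% of all genes. Slc27a6, best known from heart, read 7.19 and 6.97 in GFP-high against 4.96 and 5.34 in GFP-negative cells, the largest increase among the 53 transporters (3.82-fold, log2 difference 1.93, SE 0.166, adjusted p = 0.0002236). Slc27a2, the very long chain enzyme and uptake protein of the proximal tubule, read 5.52 and 5.89 against 8.11 and 8.71 (6.53-fold lower, SE 0.22, adjusted p = 0.000174). The 2 genes were apart without overlap in opposite directions, and both passed with each array left out (adjusted p at most 0.0465).

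Slc27a1, a widespread and insulin-responsive form, and Slc27a4, a form of gut and skin, were modestly higher, with log2 differences of 0.67 (adjusted p = 0.01289) and 0.59 (adjusted p = 0.02899). Neither passed with any 1 array left out (adjusted p 0.0719 to 0.144 and 0.0957 to 0.23), and Slc27a4 did not with the array number as a block (0.0688). Slc27a3, at 5.59 against 5.29, did not pass. Slc27a5, a liver enzyme of bile acid recycling, lay within background at 3.15 and 3.18.

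Vitamin carriers held the largest decrease of all 53 genes. Slc23a1 encodes SVCT1, the apical ascorbate cotransporter of the proximal tubule, and read 4.77 and 5.08 in GFP-high against 7.32 and 8.14 in GFP-negative cells. Both GFP-high arrays were far below (7.01-fold, log2 difference -2.81, SE 0.261, adjusted p = 0.0003201). Adjusted p was 0.0672 and 0.0528 without high A or high B, at differences of -2.65 and -2.97. Slc23a2, the widespread ascorbate cotransporter SVCT2, had a difference of -0.23 and did not pass (adjusted p = 0.286). The orphan Slc23a3 was lower by 0.71 on the log2 scale (adjusted p = 0.02084, but 0.13 without high A, 0.202 without negative B and 0.168 without negative D). Slc23a4 stood at 4.24 against 4.31.

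No passing difference was seen for folate and thiamine. Slc19a1, the reduced folate carrier, read 8.63 and 8.76 in GFP-high against 8.88 and 9.10 in GFP-negative cells. The GFP-high arrays were the lower without passing (log2 difference -0.29, SE 0.137, adjusted p = 0.2101). Slc19a2, a thiamine carrier, had a difference of 0.25 (adjusted p = 0.3436). In the Slc37a family of sugar-phosphate exchangers of the endoplasmic reticulum, Slc37a1 was higher at 6.46 and 6.72 against 5.78 and 5.57 (1.88-fold, adjusted p = 0.004783, and 0.0551 to 0.0914 with 1 array left out). Slc37a2, known from macrophages, was lower by 0.58 on the log2 scale (adjusted p = 0.0144, and 0.0915 to 0.13 with 1 array left out), with a GFP-high mean within background. Slc37a4, the glucose-6-phosphate carrier needed for glucose release, and Slc37a3 did not pass (0.04 and -0.14).

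The strongly lower carriers include several named as proximal tubule genes, and markers of that segment were lower with them. Of 12 measured proximal markers 9 were lower and 3, Slc34a3, Slc4a4 and Cyp4b1, did not pass, and no marker is listed at 0. Their summed level, as log2 of the sum of linear values, was 9.76 to 9.85 in GFP-high and 11.83 to 12.38 in GFP-negative cells, where kidney D was the higher. Hnf4a, the transcription factor of proximal identity on that list, stood at 7.39 against 9.90 (adjusted p = 0.0002379). The summed stromal level was 10.41 to 11.05 against 13.56 to 13.68. The thick ascending limb sum was 11.81 to 12.1 against 8.31 to 8.41, with Ppp1r1a alone not passing, and the distal and collecting duct sum 10.34 to 10.8 against 9.23 to 9.26, with 6 of 11 markers higher. The part of these cell types in the transporter differences was not tested.

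Proteins that work with the carriers were read from 6 lists of enzymes, chaperones and scaffolds. Of 70 such genes measured, 9 were higher (12.9%) and 16 lower (22.9%), against 8.08% and 11.2% of all genes. Emb encodes embigin, a chaperone that brings monocarboxylate carriers to the membrane. It read 9.03 in both GFP-high samples, against 6.25 and 6.19 in the GFP-negative ones, 7.01-fold higher (log2 difference 2.81, SE 0.119, adjusted p = 1.72e-05). Bsg, which encodes basigin, the other such chaperone, stood at 10.85 in both groups (adjusted p = 0.9943). Of the other 8 partner genes 4 were lower, which is 40% of the 10 on that list, against 11.2% of all genes. Sgk1, a kinase that raises transporter activity, was 4.07-fold lower (adjusted p = 0.0001698). Pdzk1, an apical scaffold of proximal tubule carriers, was 3.25-fold lower (adjusted p = 0.001165, but 0.0943 and 0.0691 without high A or high B).

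Enzymes that use the sugars were read next. Of 16 glycolysis genes 2 were higher, 2 lower and 12 did not pass (12.5% each way, near the shares of all genes), with a median log2 difference of -0.03. Pfkp, a phosphofructokinase, was higher by 0.68, and Eno2, an enolase, had -0.55. The lactate dehydrogenase subunits went opposite ways, Ldhb at 0.52 (adjusted p = 0.02783) and Ldha at -0.52 (adjusted p = 0.02858). None of these 4 passed with any 1 array left out (adjusted p 0.0696 to 0.206). In gluconeogenesis and fructose metabolism 0 of 10 genes were higher and 2 lower (20%), against 8.08% and 11.2% of all genes. The 2 were Fbp2 with -0.87, from a GFP-high mean of 4.24 within background, and Tkfc with -0.70. Fbp2 was lost without either GFP-high array or negative D (adjusted p 0.0549 to 0.0786), and Tkfc without any 1 of the 4 arrays (0.0504 to 0.133).

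Of the 5 osmolyte genes measured, 1 was higher and 1 lower, a list too short to set against the shares of all genes. Slc6a12, the betaine carrier, read 5.48 and 5.42 against 4.22 and 4.31, at least 2.21-fold higher, since the GFP-negative mean of 4.27 lies within background (adjusted p = 0.000514). Miox, which breaks down myo-inositol in the proximal tubule, read 3.77 and 3.51 against 4.58 and 5.66, so that the GFP-high arrays lay within background (at least 1.76-fold lower, adjusted p = 0.01601). Without negative D its log2 difference went from -1.48 to -0.94 (adjusted p = 0.0611), and adjusted p was 0.211 and 0.24 without the GFP-high arrays. Nfat5, the transcription factor of the osmotic response, stood at 9.32 against 8.90 (log2 difference 0.41, adjusted p = 0.05364).

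Of 18 genes of fatty acid uptake and oxidation, 4 were higher (22.2%), 2 lower (11.1%) and 12 did not pass. Among all genes 8.08% were higher and 11.2% lower. Acsm2, a medium-chain acyl-CoA synthetase of the proximal tubule, read 3.43 and 4.30 in GFP-high against 6.26 and 7.28 in GFP-negative cells. Its GFP-high mean of 3.87 lay within background (at least 5.54-fold lower, adjusted p = 0.001572, but 0.103 and 0.0593 without high A or high B). Ppargc1a, a coactivator of mitochondrial genes, was 2.87-fold higher at 9.53 and 9.41 against 7.85 and 8.04 (adjusted p = 0.0002353). Fabp3, a fatty acid binding protein of muscle and kidney, was 2.28-fold higher (adjusted p = 0.002217, but 0.0604 without high B and 0.0673 without negative D).

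Vitamin handling had 1 of 11 genes higher (9.09%) and 5 lower (45.5%), against 8.08% and 11.2% of all genes. Lrp2 and Cubn, the endocytic receptors for vitamin carriers, which are also on the proximal marker list, were both lower. The difference was 7.25-fold for Lrp2 (adjusted p = 3.833e-05) and at least 2.13-fold for Cubn (adjusted p = 0.004293), whose GFP-high mean of 3.78 lay within background. Cubn had adjusted p = 0.162 and 0.105 without high A or high B. Slc52a3, a riboflavin carrier, was 2.01-fold lower (adjusted p = 0.008741, and 0.0565 to 0.145 with 1 array left out). The folate receptor gene Folr1, at 8.61 against 8.89, did not pass.

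**Figure D4:**
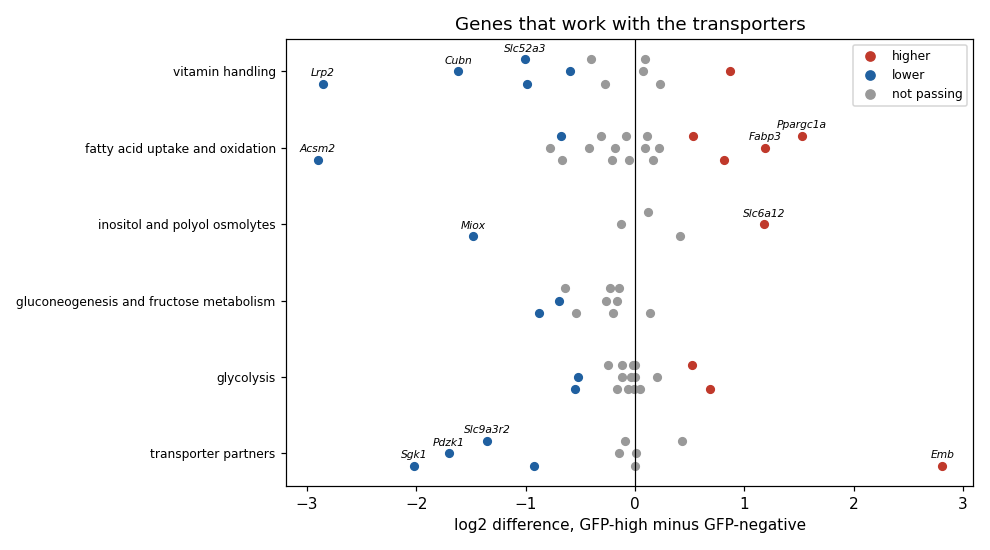
Log2 difference between GFP-high and GFP-negative cells (horizontal axis) of the measured genes of 6 lists, each point 1 gene, in red where higher, blue where lower and grey where not passing. Names are given from an absolute difference of 1. Emb stands at 2.81 and the glycolysis genes lie between -0.55 and 0.68.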

How the data were processed

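Total RNA of the sorted cells was biotin-labelled with the WT kit of the array maker and hybridised to Affymetrix arrays, per the labels' protocols. The values are the log2 expression values the authors deposited (background correction, probe set summary and normalization: not given in the sources used here). No value column was left unused (0). Arrays have no read depth, and their number limits the precision.

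Of 35556 probe sets, 21218 named 1 gene, 1881 several and 12457 none here. The probe set with the highest mean stood for a gene, leaving 18820 genes. Of the single-gene probe sets 21185 matched RefSeq, with 0 symbols updated. Group was the only term in lmFit and eBayes of limma 3.58.1 (R 4.3.3), two-sided, with Benjamini-Hochberg adjustment over all genes and a threshold of 0.05 (2 residual degrees of freedom, prior 5.11). SE is the moderated standard error. Tested on simulated data of 18820 genes for this comparison, it recovered 76.6% of the genes given a log2 change of 1 and 99.2% at 2, with 5.38% of its calls false. The simulated errors were independent and normal, with variances from the fitted prior, 200 genes were changed, and kidneys did not differ. These rates hold for that setting only and do not cover kidney differences in the real arrays.

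The members, lists and background reference were chosen with earlier results of these data known. Arrays were given one by one for transporters that passed with a difference of at least 1, or the largest in a family with none. Up to 3 passing genes a list, or the largest, were named, and others as examples chosen after their values were seen. Group came from the descriptions. Array number and kidney letter disagree, so both blocks were alternatives, beside normalization, a level filter, probe set choice, an intensity trend and leaving out each array.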

Additional observations from a re-analysis of the deposited data

Results flagged for a closer look

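The probe sets that name a transporter together with another gene stayed out of the comparison. The probe set shared by Mrps6 and Slc5a3 read 9.98 and 10.32 in GFP-high cells, against 9.24 and 8.84 in GFP-negative cells, a signal above the GFP-negative level (log2 difference 1.11, adjusted p = 0.02513 over all probe sets). The groups did not overlap, and the direction is that of the Slc5a3 probe set. The signal may come from Mrps6 RNA, Slc5a3 RNA or both, which this probe set cannot tell apart. Only shared probe sets that passed as higher were flagged. Of the other 4 such probe sets, the second for Slc5a10 and Fam83g was lower (log2 difference -1.07, adjusted p = 0.04805), and the first for that pair and those for Atraid and Slc5a6 and for Slc5a2 and Rusf1 did not pass (0.06, -0.21 and 0.14).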

How the results depend on the processing

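Leaving out genes below the median level (24 transporters tested) gave 5 lower transporters, a transporter median of 0.035 and 8 lower partner genes. Median centring also gave a transporter median of 0.035, against -0.06 as reported, and it was -0.09 within kidney B. With 1 array left out, the higher transporters numbered 5 to 6, the lower 2 to 10, the higher partner genes 3 to 5 and the lower 3 to 11, with a median of -0.12 to -0.05. These fits keep 1 residual degree of freedom, and calls over all genes fell in them as well. With the lower-mean probe set Slc16a9 turned to a log2 difference of 0.071, from a probe set within background.

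With the array number as a replicate block, 8 transporters were higher and 14 lower, and 21 of the 25 calls were kept. The calls lost were Slc27a4, Slc2a9, Slc5a11 and Slc5a2. Deviations of arrays with the same number correlated at -0.198, and those of arrays paired by letter at 0.198. With the kidney letters as a block, which crosses the numbers, 10 were higher and 19 lower. Quantile normalization and an intensity trend each kept 23 of the 25 calls (both lost Slc2a9 and Slc5a2), and median centring kept 22 (it also lost Slc5a11). Background correction could not be varied on summarised values.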
